A study of Canis lupus familiaris with 17 samples.

Results

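In 3 of 17 sequencing libraries made from dog olfactory epithelium, a small set of very abundant transcripts held a much larger part of the counts than in the other 14. The 3 were chosen by the percentage of a library's counts that fell in its own 10 most abundant features, with a threshold of 15%. They came from a Dachsund (scent_1 replicate 1), a Pomeranian (scent_0 replicate 1) and a Cocker Spaniel (scent_0 replicate 3), breeds being spelled as labelled. The lowest share inside the threshold was 18.2%, in the Pomeranian library, and the highest outside it was 10.3%, in the library of scent_1 replicate 4, a German shepherd. Because the count values themselves picked these libraries, every contrast of the 3 with the 14 in counts is given as a description, without a test.

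The study sequenced polyadenylated RNA of olfactory epithelium from 17 dogs of different breeds, each with a scent code of 0 or 1 (10 and 7 dogs), a weight class, a batch and a RIN (RNA integrity number). No treatment or genotype is labelled. The Dachsund dog was 8 in the labels' age units, weighed 9.5 kg, carried scent code 1 and weight class Below_10, and had a RIN of 5.9. The Pomeranian (age 6, 7.8 kg, scent code 0, Below_10) had a RIN of 8, and the Cocker Spaniel (age 9, 12.247 kg, scent code 0, Over_10) a RIN of 8.6. The first 2 made up the whole of batch 1, and the Cocker Spaniel was 1 of 4 dogs in batch 2. The other 14 dogs were labelled 0.5 to 14 in age, 5 to 44 kg in weight and 7.4 to 9.1 in RIN, and came from batches 2 to 6. What the scent code stands for, and the unit of age, are not given in the labels. Library totals were 31637925 counts for the Dachsund, 10599324 for the Pomeranian and 29240086 for the Cocker Spaniel, against 10536639 to 20809138 in the 14.

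Olfactory epithelium lines the upper nasal cavity and holds olfactory sensory neurons, the supporting sustentacular cells around them, basal stem cells that replace both, and the ducts of mucus-secreting glands beneath. A bulk library averages over whatever mix of these cells, and of neighbouring respiratory lining, blood or connective tissue, a piece of tissue contains, so that fewer cells of a type and less RNA per cell cannot be told apart. RIN is a score of how intact the RNA was, with higher values for longer, less broken molecules. Since sequencing divides a fixed number of reads among all transcripts, transcripts that take a larger part leave fewer reads for the rest. Cell type markers could not be read in these libraries: the deposited tables identify features by Ensembl-style dog gene IDs and do not pair them with gene names, and 0 of the IDs matched the RefSeq gene table at hand (assembly UU_Cfam_GSD_1.0). The labelled tissue was therefore not checked against its markers, and the part of tissue mixture in what follows was not tested.

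The counts were concentrated in the 3 libraries at every depth of the ranking. The 10 most abundant features held 26.5% of counts in the Dachsund library (8381785 reads, 95% Wilson interval 26.48 to 26.51). They held 18.2% in the Pomeranian library (1932478 reads, 18.21 to 18.26) and 19.8% in the Cocker Spaniel library (5795357 reads, 19.81 to 19.83). In the 14 the lowest value was 5.94%, the median 8.56% and the highest 10.3%. These intervals cover counting error only, as reads without molecular identifiers are not independent molecules. A share of 50% of all counts lay in 126 features in the Dachsund library, 404 in the Pomeranian and 408 in the Cocker Spaniel library, against 960 to 1256 features in the 14. The 1000 most abundant features held 72.3%, 62.6% and 61.3% of counts in these 3 libraries in turn, and 45.7% to 50.7% in the 14. The 3 thus lay outside the range of the others whether 1, 10, 50, 100 or 1000 features were summed.

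**Figure D1:**
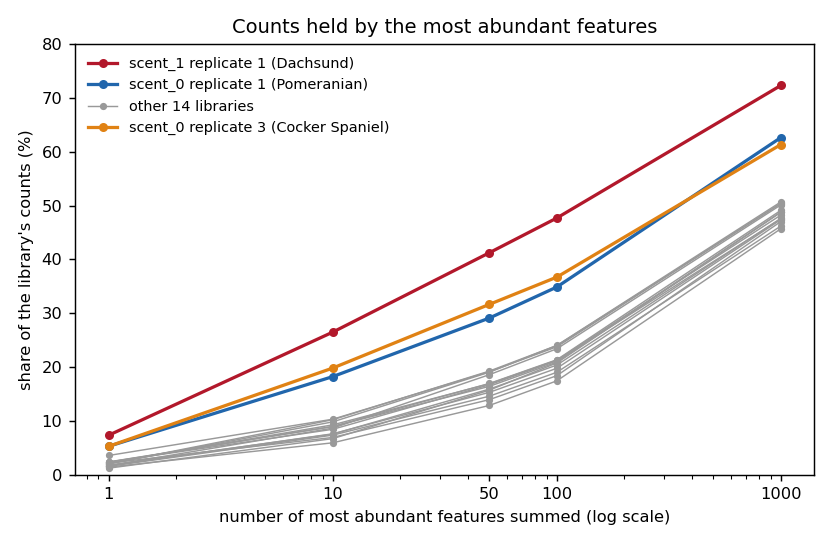
Share of a library's counts (%, vertical axis) held by its 1, 10, 50, 100 and 1000 most abundant features (horizontal axis, log scale), 1 line per library. The 3 coloured libraries lie above all 14 grey ones at each point, from 5.29% to 7.35% against at most 3.59% for a single feature to 61.3% to 72.3% against at most 50.7% for 1000 features.

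The larger share at the top went with a smaller total share in each range of ranks from 101 down. Features were ranked by their median share in the 14 and each library was read along that fixed order. Ranks 1 to 10 held 23.5%, 17.0% and 18.2% of counts in the Dachsund, Pomeranian and Cocker Spaniel libraries and 5.78% to 10.1% in the 14. Ranks 11 to 100 held 17.9%, 14.3% and 15.7%, against 10.3% to 14.5%, so that the Pomeranian library fell within the range of the others there. From rank 101 the order turned. Ranks 101 to 1000 held 23.1% to 25.1% in the 3 and 26% to 28.6% in the 14, and ranks 1001 to 5000 held 22.9%, 29.0% and 27.8%, against 33.5% to 36.6%. The next 5000 ranks held 10.0% to 11.7%, against 13.5% to 15.5%, and all lower ranks together 2.61% to 2.92%, against 3.04% to 4.32%, so that the 3 lay below all 14 in each of these ranges. The number of features seen at equal depth was lowest in the Dachsund library. After thinning each library to 10536639 counts, 15787 features had at least 5 reads in the Dachsund library, below all others, and 16727 in each of the other 2, where the 14 ranged from 16683 to 17602.

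A run of neighbouring gene IDs supplied most of the excess. The most abundant feature in all 3 libraries, and in 14 of the 17, was ENSCAFG00000022723. It is part of an unbroken run of 37 consecutive ID numbers, 15 before it and 21 after it, that was marked out after the values had been seen. What these features encode is not stated in the files. The run held 24.3% of counts in the Dachsund library, 17.5% in the Pomeranian and 19.0% in the Cocker Spaniel library. In the 14 it held 4.31% at the lowest, 6.41% at the median and 10.2% at the highest, the last again in scent_1 replicate 4. The 3 did not overlap with the 14. Of the 13 features that were among the 10 most abundant of at least 1 of the 3, 8 belonged to the run. Among the 13, 12 also stood among the 10 most abundant of at least 1 of the 14, a wide bar that 21 features met. By share of counts, 10 of the 13 lay above all 14 in each of the 3.

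Members of the run were higher together in the 3 libraries. Of the 37, 15 held at least 0.01% of counts in the median of the 14, and 14 of these 15 lay above all 14 libraries in each of the 3. Measured as a share of counts and against the median of the 14, these 15 features were 1.87- to 5.43-fold higher in the Dachsund library (median 3.62-fold). They were 1.70- to 3.45-fold higher in the Pomeranian library (median 2.81-fold) and 2.05- to 4.09-fold higher in the Cocker Spaniel library (median 2.97-fold). ENSCAFG00000022723 took 7.35%, 5.29% and 5.29% of counts in the 3 libraries, against 1.23% to 3.59% in the 14. It made up 30.3%, 30.3% and 27.8% of the run's own counts, inside the 23.8% to 36.2% seen in the 14. The second most abundant feature of all 3, ENSCAFG00000022730, took 3.71%, 2.42% and 2.83%, against 0.618% to 1.31%. For both, the Dachsund library was highest, and scent_1 replicate 4 was the highest of the 14.

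With the run left out of the table, none of the libraries passed 15% any more. The 10 most abundant of the remaining features held 13.5% of the remaining counts in the Dachsund library, 9.09% in the Cocker Spaniel and 7.93% in the Pomeranian library, against 3.78% to 8.28% in the 14. The Dachsund and Cocker Spaniel libraries still exceeded all 14, whereas the Pomeranian lay below scent_0 replicate 9, a Poodle.

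**Figure D2:**
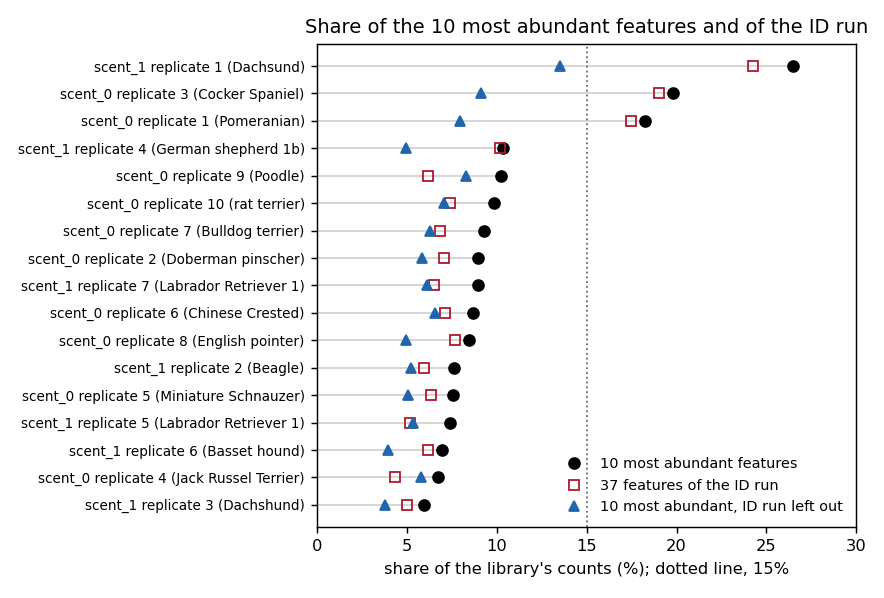
Share of counts (%, horizontal axis) in each of the 17 libraries (vertical axis, ordered by it) held by the 10 most abundant features (filled circles), by the 37 features of the ID run (open squares) and by the 10 most abundant features once the run is left out (triangles, as a share of the remaining counts). The run held 17.5% to 24.3% in the 3 libraries past the dotted 15% line and at most 10.2% in the others, and no triangle reaches that line.

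Outside the run, the abundant features separated the 3 libraries less uniformly. Of the 5 such features among the 10 most abundant of any of the 3, 2 lay above all 14 in each of the 3. The seventh feature by mean share held 1.76%, 1.47% and 1.14% of counts in the Dachsund, Pomeranian and Cocker Spaniel libraries, against at most 0.689% in the 14. The eighth held 1.30%, 0.897% and 0.911%, against at most 0.591%. The other 3 overlapped with the 14 and differed among the 3 libraries. The fifth held 2.55%, 0.848% and 1.82%, where the 14 ran from 0.0726% to 2.04%. The tenth held 1.43% and 0.935% in the Dachsund and Cocker Spaniel libraries but 0.215% in the Pomeranian, near the median of 0.183% in the 14. The last of the 13 stood out in the Pomeranian library alone, at 1.32% against 0.294% and 0.351% in the other 2, yet reached 1.86% in scent_1 replicate 7. In each of these 3 features the ratio of the highest to the lowest share was larger over the 14 dogs than over the 3. Such a ratio tends to grow with the number of dogs, so it does not show that the 3 were more alike.

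The separation of the 3 from the 14 reached far beyond the leading features. Of 32912 features, 16202 passed the filter on low counts and were compared as CPM, counts rescaled to a common library total, after scaling by TMM, a trimmed mean of log ratios that equalises the bulk of features rather than library totals. TMM factors were 0.518 for the Dachsund, 0.727 for the Pomeranian and 0.757 for the Cocker Spaniel library, against 1.03 to 1.14 in the 14. They were still 0.646, 0.833 and 0.890, against 1.02 to 1.10, when computed without the run. In 3151 features (19.4% of those compared) each of the 3 libraries lay above each of the 14, and in 2541 (15.7%) each lay below. The split depends on the scaling: relative to library totals 1256 features were higher and 5200 lower, since the median feature then sat 0.98, 0.57 and 0.46 log2 units below the median of the 14. Without the Cocker Spaniel library, 3873 features were lower in both of the others. The deposited identifiers give 2 classes of feature to set against these shares. A feature that passed the filter only through the 3 libraries had to be high in them, as 1 of the ID run and 14 of the chromosome-named features did. Both classes are therefore described over features that passed the filter in the 14 alone, of which there were 16193 in all, with 3113 higher (19.2%) and 2548 lower (15.7%). Of the 37 features of the ID run 22 passed in the 14, and of these 17 were higher and 0 lower. Of the 208 features whose names hold a chromosome in place of a gene ID 76 passed, and 16 (21.1%) were higher and 0 lower, a share of higher features close to that of all features. The median log2 difference of these 76 from the 14 was 2.70 in the Dachsund, 1.71 in the Pomeranian and 1.64 in the Cocker Spaniel library, where all features had -0.06, -0.06 and 0.01, and for the run it was 2.81, 2.13 and 2.00. Within the 14, which held both weight classes, the 76 leaned lower in Over_10 than in Below_10 dogs (median -1.05 log2 units). The Dachsund and Pomeranian were Below_10 and the Cocker Spaniel Over_10. All 208 chromosome-named features together held 0.0870%, 0.0930% and 0.0582% of counts, against 0.00489% to 0.0742% in the 14, where the highest value, in scent_0 replicate 6 (a Chinese Crested), exceeded the Cocker Spaniel's. Among the 1000 features most abundant in the 14, 27.3% were higher and 18.2% lower, and among the least abundant 6202, where counts are smallest, 11.1% and 8.17%.

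ENSCAFG00000022723 and ENSCAFG00000022730 had the largest shares of counts among the higher features. On the TMM scale ENSCAFG00000022723 stood at 142116 CPM in the Dachsund, 72901 in the Pomeranian and 69975 in the Cocker Spaniel library, and at 11202 to 34835 CPM in the 14 (median 16378). That is 3.12, 2.15 and 2.10 log2 units above the median of the 14, on the log2(CPM + 0.5) scale. Among the lower features with at least 10 CPM in the median of the 14, ENSCAFG00000014724 and ENSCAFG00000029819 differed most. ENSCAFG00000014724 stood at 6.05, 11.6 and 8.10 CPM (99, 89 and 179 reads), against 15.7 to 180 CPM in the 14 (median 88.0). ENSCAFG00000029819 stood at 1.96, 5.46 and 2.44 CPM (32, 42 and 54 reads), against 5.71 to 56.0 CPM (median 28.2). In both, scent_1 replicate 6, a Basset hound, was the lowest of the 14 and lay close to the 3, so the groups are separated by a narrow gap.

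The 3 libraries departed from the 14 largely in the same features and directions, by different amounts. Each was compared with the median of the same 14 libraries, so the 3 comparisons share their reference. In the Dachsund library 4198 features (25.9%) were over 2-fold higher and 4530 (28.0%) over 2-fold lower. In the Pomeranian library the numbers were 3278 (20.2%) and 3482 (21.5%), and in the Cocker Spaniel library 2083 (12.9%) and 1295 (7.99%). Both directions together came to 53.9%, 41.7% and 20.9% of features in the 3, against 4.04% to 16.5% when each of the 14 was compared with the median of the other 13. Of the Cocker Spaniel's higher features 94.3% were also over 2-fold higher in the Dachsund library, where they were 46.8% of the list, and 79.0% were so in the Pomeranian library (50.2% of its list). Of its lower features, 83.3% were shared with the Dachsund (23.8% of that list) and 70.0% with the Pomeranian library (26%). The Dachsund and Pomeranian libraries shared 2695 higher features, 64.2% and 82.2% of their lists, and 2951 lower ones, 65.1% and 84.8%. All 3 shared 1613 higher and 842 lower features. Opposite changes were few: 0 to 20 features were over 2-fold higher in one of the 3 and over 2-fold lower in another.

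The Cocker Spaniel library took a middle position. For the Dachsund's 4198 higher features, the median log2 difference from the 14 was 1.72 in the Dachsund, 1.21 in the Pomeranian and 0.95 in the Cocker Spaniel library. For its 4530 lower features it was -1.74, -1.21 and -0.65. The same lists had medians of -0.06 to 0.15 and -0.16 to 0.09 in the 14. Over the 3151 higher features that do not overlap between the 3 and the 14, the Dachsund library was the highest in 81.9% and the Cocker Spaniel the least high in 81.4%. Over the 2541 lower features the Dachsund was the lowest in 76.7% and the Cocker Spaniel the least low in 76.8%. The Cocker Spaniel library was the highest of all 17 in 118 and the lowest in 534 features, where the Dachsund was so in 4244 and 4207 and the Pomeranian in 1639 and 1339. Among the 14, each library was the highest in 332 to 1490 and the lowest in 174 to 1729 features (median 514). The Cocker Spaniel thus lay below that range for the highest and within it for the lowest. A feature in which the Dachsund or Pomeranian went farther is not counted for it.

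**Figure D3:**
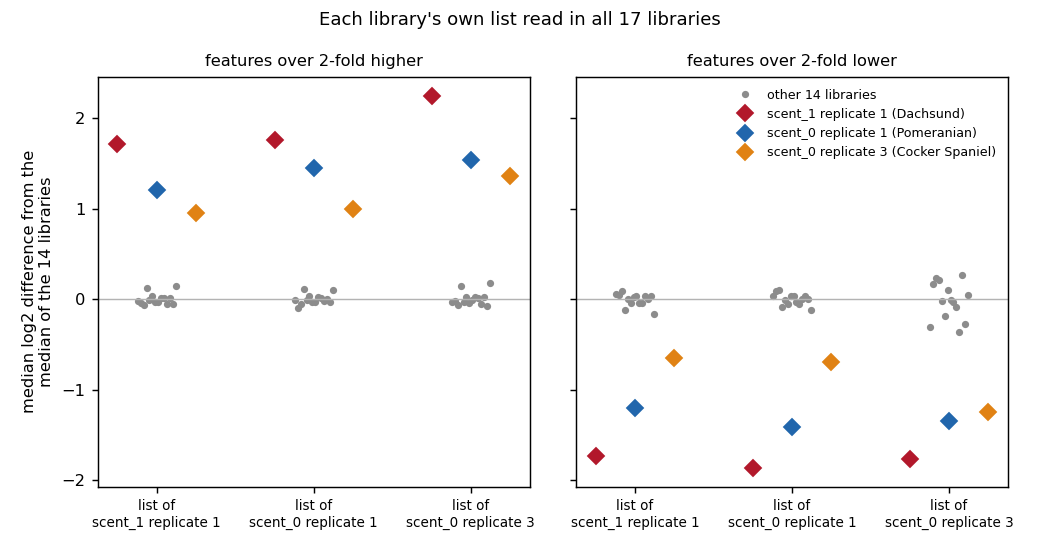
Median difference from the median of the 14 libraries (log2 units, vertical axis) for the features over 2-fold higher (left) or lower (right) in each of the 3 libraries, read in the 3 libraries (diamonds) and the other 14 (dots). Lists run along the horizontal axis, and each list's own library lies past 1 by choice of the features. The Dachsund library is farthest from 0 in all 6 lists, up to 2.25 and down to -1.87, and the 14 stay between -0.36 and 0.27.

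Rank correlations across features placed the libraries in the same order. Spearman's rho over the 16202 features was 0.94 between the Dachsund and Pomeranian libraries, 0.95 between the Pomeranian and Cocker Spaniel and 0.92 between the Dachsund and Cocker Spaniel. With the 14, the Dachsund library had values of 0.73 to 0.80, the Pomeranian 0.81 to 0.87 and the Cocker Spaniel 0.86 to 0.93, and the 91 pairs among the 14 had 0.86 to 0.98. These are descriptions over features of 1 table, which are not independent. The dog most like the Dachsund in its labels, scent_1 replicate 3 (labelled Dachshund, 9.07 kg, scent code 1, Below_10, age 4, RIN 8.5, batch 4), had the lowest top-10 share of all 17, 5.94% against 26.5%, and a rho of 0.76 with it.

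RNA integrity was measured apart from the counts and could be tested. RIN was 5.9, 8 and 8.6 in the 3 dogs and 7.4 to 9.1 in the 14 (7.50 ± 1.42, SD, n = 3, and 8.18 ± 0.531, n = 14). Only the Dachsund lay outside the range of the 14. The difference did not pass (two-sided exact permutation p = 0.226 over all 680 splits, adjusted p = 0.485 over 3 label measures, smallest possible p = 0.00294). Without the Dachsund it was 0.12 in the other direction (exact permutation p = 0.850). Age (7.67 ± 1.53 and 7.39 ± 4.26; exact permutation p = 0.974, adjusted p = 0.974) and weight (9.85 ± 2.24 and 18.5 ± 12.4 kg; exact permutation p = 0.324, adjusted p = 0.485) did not pass either. With 3 dogs on one side these tests leave wide room for differences.

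Among the 14 dogs below the threshold, those with lower RIN tended to have a higher top-10 share. These dogs were kept for a low value of that same share, which left out the Dachsund, the Pomeranian and the Cocker Spaniel. The correlations below therefore describe the 14 only and carry no p. As the 3 libraries form a separate cluster, no r over all 17 is given. Pearson's r with RIN was -0.73 and Spearman's rho -0.72. Without the 2 dogs farthest from the median RIN, scent_0 replicate 4 and scent_1 replicate 4, r was -0.61, and after each batch's mean was subtracted from both measures it was -0.73. No batch held 6 of these dogs, so no r is given within single batches. With the share of the 100 most abundant features r was -0.51. The top-10 share had an r of 0.02 with age and 0.23 with log2 weight. The share of the ID run had an r of -0.72 with RIN, 0.26 with age and 0.38 with log2 weight. Without the 2 dogs farthest from the median of each label, a different pair for each, these became -0.53, 0.57 and 0.56. As the sets of dogs differ, these 3 values are not set against each other. The Dachsund had the lowest RIN and the highest share of all 17. At a RIN of 8 the Pomeranian library held 18.2%, and the 2 dogs with a RIN of 8.1 held 6.93% and 8.96%. At 8.6 the Cocker Spaniel library held 19.8%, and scent_0 replicate 6 with the same RIN held 8.66%. A cause of the larger shares was not tested.

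**Figure D4:**
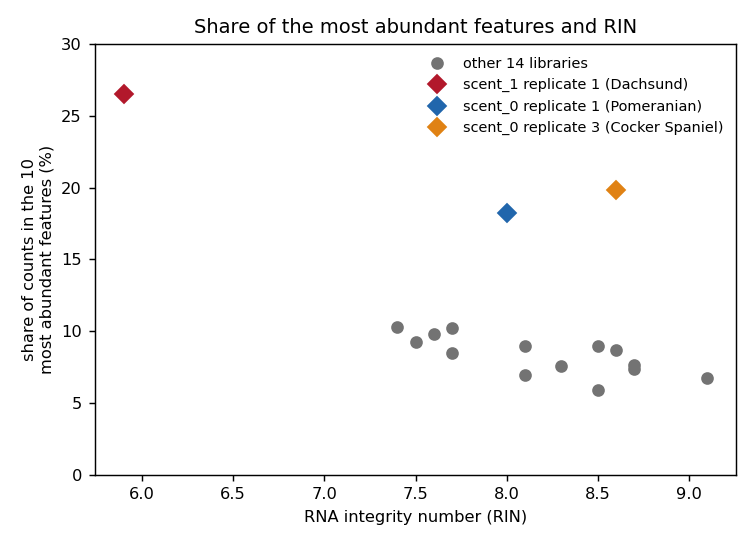
Share of counts in the 10 most abundant features (%, vertical axis) against RIN (horizontal axis), 1 point per dog. The 14 grey points lie between 5.94% and 10.3%, with 10.3% at their lowest RIN of 7.4 and 6.72% at their highest of 9.1; the Dachsund lies at 5.9 and 26.5%, while the Pomeranian and Cocker Spaniel lie at 8 and 8.6, inside the RIN range of the grey points.

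Whether single features that mark the 3 libraries also went with RIN, weight class or scent code was asked in the 14 dogs alone, with batch, weight class, scent code and RIN in 1 model, again in dogs kept for a low top-10 share. In edgeR's quasi-likelihood test of 16193 features, RIN called 0 (0%), weight class 0 (0%) and scent code 0 (0%). At an unadjusted p under 0.05 there were 492 (3.04%), 2902 (17.9%) and 881 (5.44%), and DESeq2 called 5, 897 and 30. The model left 6 residual degrees of freedom, so moderate differences can be missed. Of the 22 run features in the fit, all 22 had a fitted value below 0 for RIN, with a median of -0.44 log2 units per RIN unit. Of all features, 50.4% were below 0 and their median was 0.00. In the 14, between 3 and 7 of the 10 features in the share that kept these dogs belonged to the run. Its features are also not independent units, so the values of the run describe the 14 only and carry no p. ENSCAFG00000022723 had a fitted log2 change of -0.45 ± 0.35 (SE) per RIN unit and ENSCAFG00000022730 of -0.54 ± 0.32. For RIN the wider lists did not lean as the run did. Of the 3113 higher features in the fit, 48.6% were below 0 for RIN, and of the 2541 lower features 51.4%. For weight class 39.4% and 62.8% were below 0, against 47.7% of all features, and for scent code 60.1% and 43.7%, against 48.9%. An unadjusted p under 0.05 was found for RIN in 1.93% and 2.32% of these lists, against 3.04% of all features. For weight class it was found in 10.2% and 11.6%, against 17.9%. The lists hold only features whose 14 values all lie above, or all below, those of the 3 libraries. That choice tends to leave out features that vary widely among the 14, so smaller shares are partly fixed in advance. Of the 76 chromosome-named features in the fit, 31 (40.8%) had an unadjusted p under 0.05 for weight class, against 17.9% of all features. Of these 76, 61 lay below 0, and their median was -1.05 log2 units in the Over_10 dogs against Below_10.

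The mark of a first replicate in the library name was carried by the Dachsund and Cocker Spaniel libraries and also by scent_1 replicates 2 and 5, whose top-10 shares were 7.61% and 7.36%. The marked Dachsund and Cocker Spaniel libraries held 31637925 and 29240086 counts, and scent_1 replicates 2 and 5 held 12664228 and 20809138. The largest library without the mark, scent_0 replicate 9, held 13209206. Batch 1 contained the Dachsund and Pomeranian dogs only, so for these 2 the batch and the concentration of counts cannot be told apart. The other 3 dogs of batch 2 had top-10 shares of 8.97%, 6.72% and 7.55%, against 19.8% in the Cocker Spaniel library.

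This layout shaped the authors' deposited log2 table, which its name describes as corrected for batch. In it, for each of its 16917 features, the mean of each of the 6 batches equalled the mean of all dogs (within 1e-10). The Dachsund and Pomeranian values therefore deviate from the overall mean by equal amounts in opposite directions, and a feature in which both lie above all 14 cannot occur. Of the 3151 higher features, 3105 were present there. Their median log2 difference from the 14 was 1.65, 1.26 and 0.90 in the Dachsund, Pomeranian and Cocker Spaniel libraries by counts. By the deposited values it was 0.25, -0.19 and 0.81. For the 2521 lower features present, the medians went from -1.66, -1.25 and -0.80 to -0.25, 0.19 and -0.74. In the deposited table the Cocker Spaniel library thus kept its distance from the 14, while the Pomeranian moved into the range of the 14 (-0.29 to 0.11 for the higher and -0.09 to 0.23 for the lower features) and the Dachsund close to it. For the higher features the other 3 dogs of batch 2 lay lower in the deposited table than in the counts, at -0.09, -0.29 and -0.24 in place of 0.03, -0.13 and -0.09.

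**Figure D5:**
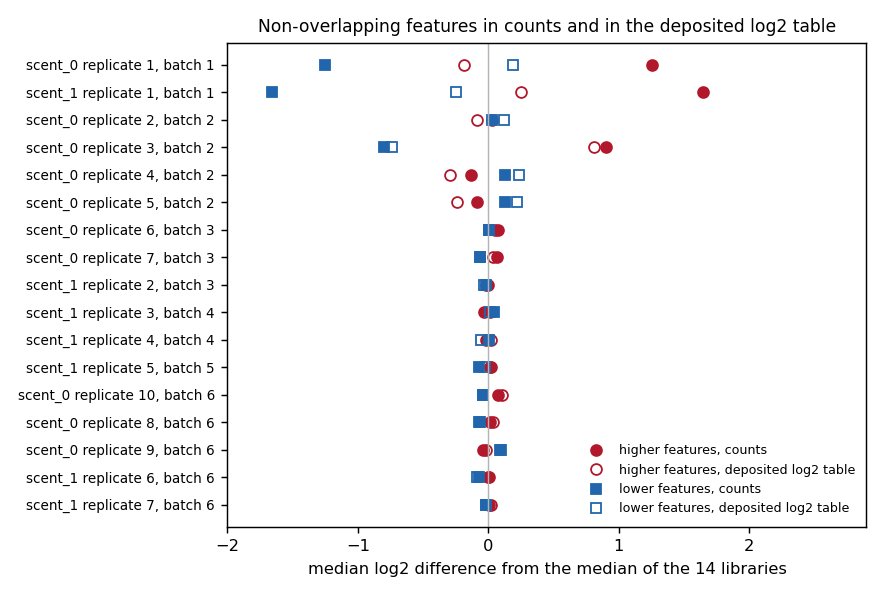
Median log2 difference from the median of the 14 libraries (horizontal axis) for the higher (circles) and lower (squares) non-overlapping features in each library (vertical axis, by batch), from counts (filled) and from the authors' deposited log2 table (open). The batch 1 libraries move from 1.65 and 1.26 to 0.25 and -0.19 for the higher features, whereas the Cocker Spaniel library (scent_0 replicate 3) stays at 0.81.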

How the data were processed

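The raw count table deposited by the authors gives whole-number reads per feature for 32912 features in 17 libraries, without normalization. A second table deposited by the authors gives log2 expression values for 16917 features with a batch effect taken out, per its name. Per the submitters' processing notes, which give no roles, the tools behind the authors' tables include DESeq2, limma, edgeR, HTSeq, STAR 2.5.3 and Trim Galore 0.3.1. The build was not given in the sources used here. Replicate numbers follow accession order and only name dogs. p-values measure the spread between dogs.

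Features were kept by edgeR's filterByExpr (minimum count 10, scent groups). CPM were scaled by TMM, and 0.5 CPM was added before log2. The 14 libraries were fitted with edgeR 4.0.16 (robust quasi-likelihood F-test, R 4.3.3, Benjamini-Hochberg, 0.05). DESeq2 1.42.0 was an alternative on the same features. The count test was also run on simulated data in which features changed with weight class only, without batch, RIN or scent effects. Its outcome is not given here and does not cover data with such effects. Python 3.11.15, numpy 2.4.6, scipy 1.17.1 and pandas 2.3.3 were used.

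The libraries and lists were chosen with earlier results of these data known. IDs were named by rule: the 2 non-overlapping higher features with the largest mean share in the 3 libraries and the 2 lower ones, of at least 10 CPM in the median of the 14, with the largest median log2 difference. Planned marker lists need gene names and were not run. Left out are other tables and genomes, not used here.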

Additional observations from a re-analysis of the deposited data

Results flagged for a closer look

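Within each scent group, a library was listed where its gap to the nearest other, divided by the group's range, was above the 95% critical value of Dixon's ratio. The ratio served to list libraries and is not a test of the 3, since they were chosen by their top-10 share and most of the other measures derive from the same counts. Of 20 combinations of measure and scent group 10 were listed; chance lists about 1 in 20 only where the values did not choose the libraries. The Dachsund library stood apart among the 7 scent_1 libraries in 8 measures. These were its top-10 share (26.5%, next 10.3%), the share of the ID run (24.3%, next 10.2%), the top-10 share without the run (13.5%, next 6.08%), the 126 features holding 50% of counts (next 976) and the 15787 features detected at equal depth (next 16827). The others were its share of chromosome-named features (0.0870%, next 0.0328%), its TMM factor (0.518, next 1.03) and the 8728 features over 2-fold from the median of the 14 (next 2158). Among the 10 scent_0 libraries the Pomeranian stood apart with 6760 features over 2-fold from that median (next 3378, the Cocker Spaniel), and the Cocker Spaniel with a total of 29240086 counts (next 13209206). The RIN of the Dachsund, 5.9, was not listed.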

How the results depend on the processing

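No paired analysis was possible because the labels give no replicate numbers shared between groups. In 90 alternatives listed beforehand and 22 added after seeing the data, the value kept its direction and side of the threshold, or stayed within 1.5 times or the spread. The others follow. With a threshold of 20% 1 library remained and with the ID run left out 0; the 3 kept the highest shares for 1, 50 and 100 features. Non-overlapping features numbered 1256 higher and 5200 lower by library totals, 0 and 0 in the deposited log2 table, and 3225 to 4026 and 2707 to 3873 without 1 of the 3 libraries (the last without the Cocker Spaniel). At 4-fold, 1522 higher and 1676 lower features were left in the Dachsund, 421 and 370 in the Pomeranian and 271 and 136 in the Cocker Spaniel library. By library totals these were 1458 and 8027, 1263 and 6007, and 807 and 3935, and with 2 CPM added the Cocker Spaniel's lower features were 804. Detected features in the Dachsund library were 0.921 times the median of the 14, and 0.938 times at 1 read. Without 1 of the 3 dogs the RIN difference ran from -1.23 to 0.12, that of age from -0.39 to 1.11 and that of weight from -9.90 to -7.68 kg. The top-10 share against RIN in the 14 had r from -0.78 to -0.67 without each dog, and -0.51 for the 100 most abundant features. The top-10 share against age had r = -0.032 within the 14 dogs with batch means removed, and log2 weight r = -0.14 with 100 features. In the 14 dogs DESeq2 called 5 features for RIN, 897 for weight class and 30 for scent code. For weight class edgeR called 338 without the batch term, 1653 without RIN in the model, and 0 to 30 without 1 dog (30 without scent_1 replicate 4, 27 without scent_1 replicate 3); for RIN and scent code it called 0 without any 1 dog. The cause was not tested for any of these. Leaving out the ID run, using its share, filtering in the 14 alone and leaving out single dogs in the RIN relation were chosen after seeing the data. With 3 selected libraries, label tests have little power, and the least abundant features are limited by depth.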
